A study of Mus musculus with 4 samples.

Results

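The comparison was between 2 RNA preps of murine CD8+ T cells that had been made in culture, here called in vitro prep 1 and in vitro prep 2. Each prep was hybridised on 2 of the 4 arrays of the series, once against thymic prep 1 and once against thymic prep 2, so prep 1 minus prep 2 could be taken within each thymic partner. All 41174 probes that were not controls entered the processing. Of these, 28069 probes, which stood for 19809 genes, had a Cy5 signal well above background on both arrays of at least 1 in vitro prep and a value on all 4 arrays. Every count below is over these 19809 genes.

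Both preps came from C57Bl/6 bone marrow of donors aged 6 to 8 weeks, from which 100000 Lin- Sca1+ CD117+ cells were sorted and cultured. OP9-DL1, a stromal line carrying the Notch ligand Delta-like 1, supported the cultures for 35 days in medium with fetal serum, Flt3 (5 ng/ml) and IL7 (1 ng/ml). CD8+ cells with high T cell receptor beta were then sorted, as they were from thymi of C57Bl/6 mice aged 4 to 5 weeks, and no cells were treated. The labels name no animals, cultures or sort days behind a prep, and amplification, labelling and culture are therefore joined in one difference and cannot be told apart. In vitro RNA always carried Cy5 and thymic RNA Cy3. A dye effect on a probe cancels between the preps, because both carried the same dye.

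Hematopoietic progenitors on Delta-like 1 stroma pass through the stages that thymocytes pass through, from precursors over CD4+ CD8+ cells to CD8+ cells with a rearranged receptor. The stroma supplies the Notch signal, IL7 supports survival and proliferation, and Flt3 ligand expands early progenitors. Such cultures hold cells at several of these stages at once. Groups of genes that respond to amino acid supply, cytokines, receptor signals and handling are well known in T cells, and the genes below are ordered by these groups.

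There was 1 RNA prep a side, so no p-value can be given for any gene. A gene was called when its difference had the same sign with both thymic partners and was at least 1.5-fold with each. The 2 differences of a gene come from the same pair of in vitro RNAs. They are repeat hybridisations, and their agreement shows measurement error and not the spread between cultures. Values are log2 ratios of in vitro over thymic RNA. The value with thymic prep 1 is given first and that with thymic prep 2 second, and a negative difference means that prep 2 was higher.

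By this rule 211 genes were called, which is 1.07% of those tested. Of these, 102 genes (0.515%) were higher in prep 1 and 109 genes (0.55%) were higher in prep 2. Counts of list members called at 1.5-fold, given below, are to be read against these shares over all genes. No gene passed 1.5-fold with opposite signs. At a lower threshold of 1.25-fold, added after the values were seen, 6.33% of genes were called (3.27% higher in prep 1 and 3.05% higher in prep 2), against 1.03% between the thymic preps. At 2-fold the counts were unequal, with 5 genes (0.0252%) higher in prep 1 and 24 genes (0.121%) higher in prep 2, and at 3-fold they were 0 and 4. Spots that the scanner software marks as irregular had been left out. When they were kept, 23.3% of 180 calls lay on the side of prep 1, against 48.3% of the 211, and with the background model fitted on all spots 23.8% of 181 calls did.

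The plot of the differences with each partner shows how close the repeat hybridisations were. Among called genes the median gap between both differences was 0.04 on the log2 scale and the largest was 0.37. Over all genes, the standard deviation of the mean difference was 0.19, against 0.06 for the deviation of each partner's value from that mean. The same genes, filtered on Cy5 and not on the thymic channel Cy3, were also compared between the thymic preps. Across this other axis of the same 4 arrays, the thymic preps were closer to each other. At least 1.5-fold apart with both in vitro partners were 46 genes (0.232%), at 2-fold 0.0353% of genes were, and the standard deviation of their mean difference was 0.11. With 1 pair of preps of each kind, whether in vitro preps vary more than thymic ones was not tested.

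**Figure D1:**
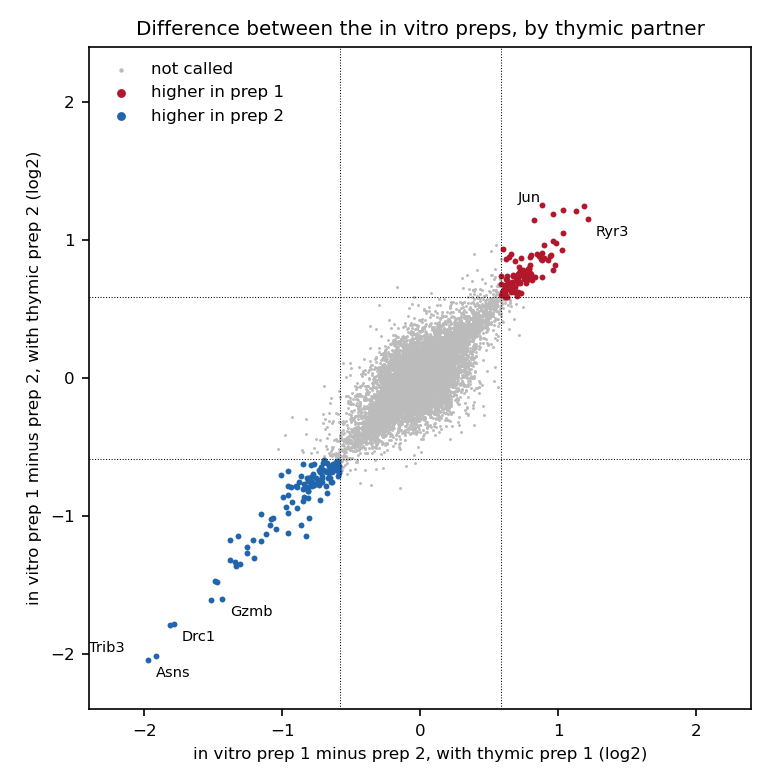
Difference between in vitro prep 1 and in vitro prep 2 for 19809 genes on the log2 scale, with thymic prep 1 as the partner on the horizontal axis and thymic prep 2 on the vertical axis. Dotted lines mark 1.5-fold; the 102 genes higher in prep 1 are red, the 109 higher in prep 2 are blue, and no gene lies beyond the lines in the other quadrants.

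All 4 arrays lay on 1 slide. Cy5 was well above background in 66.5% to 70.9% of spots and Cy3 in 63.7% to 65.6%, and repeated spots of a probe had a standard deviation of 0.063 to 0.066 on the log2 ratio. All 211 called genes kept their sign when the Cy5 channel was read alone, and 72 of the 102 and 97 of the 109 were also called in it. Of the 211 genes, 28 genes had a Cy3 signal that moved by more than 0.2 on the log2 scale between arrays carrying the same thymic RNA. At 2-fold, 16 of the 24 genes higher in prep 2 and 4 of the 5 higher in prep 1 stayed within 0.2. Those beyond it included Slc7a3 (-0.24), Slc6a9 (-0.25), Gzmb (-0.27) and Mthfd2 (-0.205), besides Asns and Trib3, and on the side of prep 1 Ryr3 (0.23). The call lines cut through a continuous range: 83 called genes lay within 0.1 of the 1.5-fold line and 195 genes lay just outside it.

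The clearest set of genes higher in prep 2 belonged to the amino acid response. Cells that run short of an amino acid, or whose translation is otherwise slowed, make more of the transcription factor ATF4. Together with C/EBP partners, ATF4 raises genes for amino acid synthesis, amino acid uptake and the charging of tRNA. Of 28 tested genes of a list of amino acid and unfolded protein response genes, 9 genes were higher in prep 2 and 0 were higher in prep 1. The share higher in prep 2 over all genes was 0.55%. The median difference of the list was -0.23, against -0.00 over all genes, and lay between -0.34 and -0.18 under the alternative settings.

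Asns makes asparagine and is a standard reporter of this response. It had ratios of 2.38 and 2.37 in prep 1 and of 4.35 and 4.42 in prep 2. It was 4.03-fold higher in prep 2 and held the largest mean difference of all genes tested, -2.01. Both preps were above thymic RNA for Asns, and the arrays of the preps did not overlap. Trib3, a pseudokinase that damps the response, had ratios of 0.87 and 0.97 in prep 1 and of 2.79 and 2.99 in prep 2, a 3.91-fold difference. A second Trib3 probe gave a smaller difference of -1.07. Chac1, which degrades glutathione, stood at 0.28 with both partners in prep 1 and at 1.66 and 1.59 in prep 2, which is 2.55-fold. In prep 1, Chac1 was thus close to its thymic level.

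Further regulators followed. Atf5, a transcription factor related to ATF4, had ratios of 0.56 and 0.52 in prep 1 and 1.87 in both arrays of prep 2 (2.51-fold). Eif4ebp1, an inhibitor of translation initiation, was at 0.35 and 0.42 in prep 1 and at 1.19 and 1.18 in prep 2 (1.75-fold). Cebpg, a C/EBP family partner of ATF4, was at -0.24 and -0.33 in prep 1 and at 0.45 and 0.46 in prep 2 (1.66-fold). For each of these regulators the arrays of prep 2 lay above those of prep 1. The mRNA of Atf4 itself was not called. Its difference was -0.27, and its ratios were -0.10 and 0.22 in prep 1 and 0.13 and 0.52 in prep 2. The arrays of the preps overlap across the thymic partners, but prep 2 was higher with each partner. The thymic preps differed by 0.36 for Atf4. Ddit3, a later target in the same pathway, was also not called, at -0.42. Counted over a set of 25 integrated stress response regulators, which was put together after the values were seen, 5 genes were higher in prep 2 and 1, Trib1, was higher in prep 1.

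Among amino acid transporters 3 of 27 tested genes were higher in prep 2, where 0.55% of all genes were, and 0 were higher in prep 1. This set was also put together after the values were seen. Slc7a3, which imports arginine and lysine, had ratios of 0.65 and 0.62 in prep 1 and of 2.17 and 2.24 in prep 2 (2.96-fold). Slc6a9, a glycine transporter, had 0.26 and 0.29 in prep 1 and 1.75 and 1.76 in prep 2 (2.79-fold). Slc7a5, the light chain of the carrier for large neutral amino acids, had 0.03 and 0.02 in prep 1 and 0.88 and 0.91 in prep 2 (1.83-fold). Its heavy chain partner Slc3a2 was not called, with a difference of -0.30, and neither was the cystine carrier gene Slc7a11, at -0.20. The other 24 tested transporters had differences from -0.43 for Slc1a4 to 0.40 for Slc7a7.

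Enzymes of serine, glycine and mitochondrial one-carbon metabolism showed the same order of the preps. In a set of 19 such genes chosen after the values were seen, 5 were higher in prep 2 and 0 were higher in prep 1. The share higher in prep 2 over all genes was 0.55%. Shmt2 splits serine into glycine and a one-carbon unit in mitochondria. It had ratios of -0.09 and -0.05 in prep 1 and 0.95 and 1.05 in prep 2 (2.10-fold). Mthfd2, the next mitochondrial step, had 1.01 and 1.07 in prep 1 and 2.10 and 2.09 in prep 2 (2.08-fold). Psat1, of serine synthesis, was 1.88-fold higher in prep 2, and Phgdh, the first enzyme of that route, 1.56-fold. Gcat, which acts on a breakdown product of threonine, had a difference of -0.77. The cytosolic forms Shmt1 and Mthfd1 were not called, at -0.24 and -0.12.

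Genes of carbon and nitrogen exchange were also among the called genes. Pck2, the mitochondrial phosphoenolpyruvate carboxykinase, had ratios of -0.02 and 0.01 in prep 1 and of 1.19 with both partners in prep 2, a 2.29-fold difference. Prep 1 did not differ from thymic RNA for Pck2 by more than 0.02. Gpt2, a mitochondrial alanine aminotransferase, was 2.25-fold higher in prep 2, and Bcat1, which starts the breakdown of branched-chain amino acids, had a difference of -0.74. Endoplasmic reticulum chaperones of the unfolded protein response were not called, although they stood on the same list. Hspa5 had a difference of 0.19, Hsp90b1 of -0.23 and Dnajb9 of 0.47.

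Cytosolic aminoacyl-tRNA synthetases, which load amino acids onto tRNA, moved unequally. This set too was put together after the values were seen, so its counts only describe the genes chosen. Of 20 tested, 6 were higher in prep 2 and 0 were higher in prep 1, with a median of -0.43 over the 20. At 1.25-fold 12 of the 20 were higher in prep 2, where the share over all genes was 3.05%. Cars had ratios of 0.66 and 0.64 in prep 1 and 1.40 and 1.41 in prep 2 (1.68-fold). Iars, Sars, Gars, Aars and Nars had differences of -0.72, -0.71, -0.71, -0.67 and -0.64. Yars lay just outside the rule with -0.66 and -0.56. At the other end, Rars, Qars and Dars had differences of 0.01, 0.01 and 0.08, and Farsa was at 0.30. Xpot, which exports tRNA from the nucleus, was called with a difference of -0.63. No Cy3 signal of the 6 called synthetases moved by more than 0.07 between arrays of the same thymic RNA, whereas that of Asns moved by -0.21 and that of Trib3 by -0.25, in the direction of the Cy5 change.

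**Figure D2:**
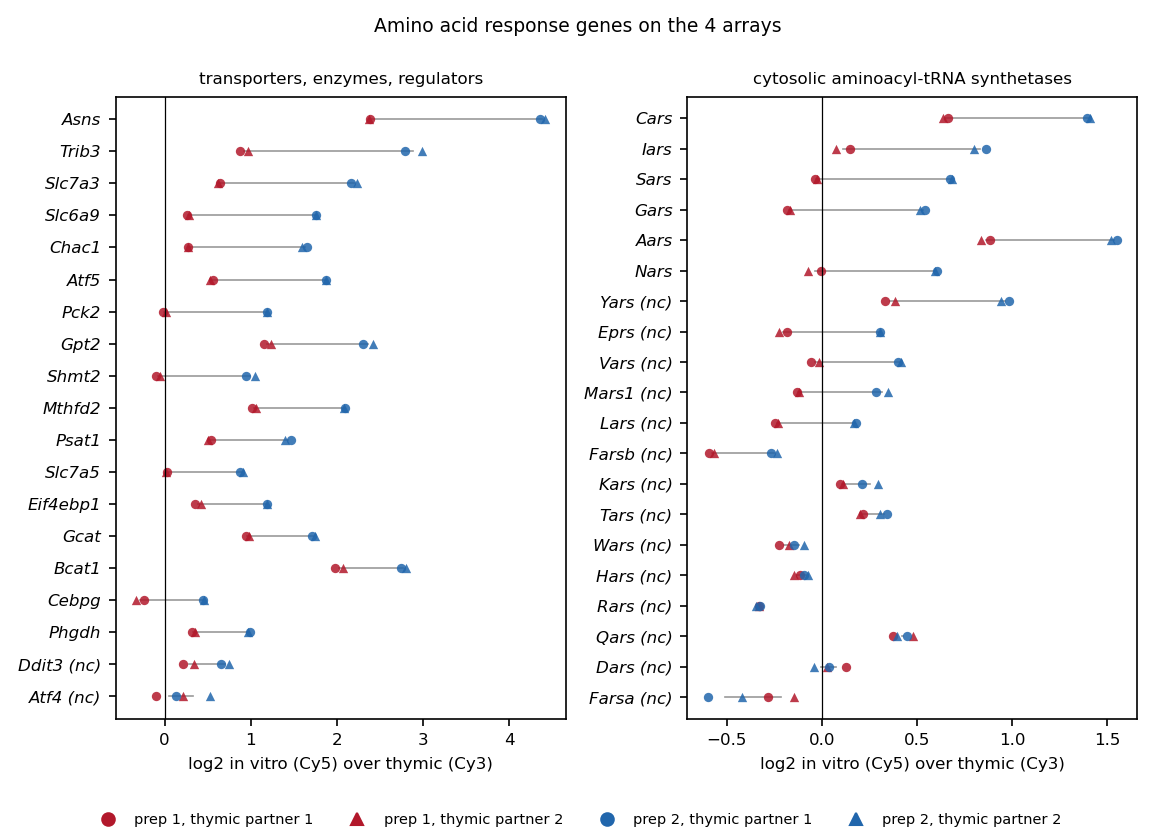
Log2 ratio of in vitro over thymic RNA on each of the 4 arrays for amino acid response genes (left) and the 20 cytosolic aminoacyl-tRNA synthetases (right), with prep 1 in red, prep 2 in blue, circles for thymic prep 1 and triangles for thymic prep 2 as the partner. Grey lines join the means of the preps and (nc) marks genes that were not called. Asns runs from 2.37 to 4.42. The arrays of Atf4 overlap across the thymic partners, while prep 2 is higher within each partner.

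ATF4 and its C/EBP partners bind a composite element whose core can be written TGATGNAA. Because genes of this response moved together, this core was searched on both strands of RefSeq promoter windows (GRCm38.p6), each running from 250 bases before to 50 bases after a transcription start. A gene with several starts counted once if any of its windows held the core. It was present in 9 of the 68 called genes higher in prep 2 that had a window (13.2%), in 3 of the 46 higher in prep 1 (6.52%), and in 353 of 11234 tested genes (3.14%). Over all genes with a window, tested or not, 4.51% of 27025 held it. Counted by window instead of by gene, 3.97% of 32851 did. A match describes letters and not a bound site. Of 26 genes of the amino acid and unfolded protein response list with a window, 6 held the core. Of these, Asns, Chac1 and Trib3 were called, while Herpud1, Nupr1 and Slc7a11 were not. Short stretches around the core are shown for 6 of the called amino acid response genes, since Asns and Trib3, with the largest differences of all genes, are among them. The core is in capitals, and it reads as its reverse complement where it lies on the opposite strand:
Asns: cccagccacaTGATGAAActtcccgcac
Chac1: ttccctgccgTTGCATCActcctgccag
Pck2: gccttcaaagTTACATCAgtatcttaca
Trib3: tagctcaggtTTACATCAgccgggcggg
Gars: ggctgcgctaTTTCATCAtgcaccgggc
Iars: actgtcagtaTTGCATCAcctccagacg
The stretch of Asns lies at chr6:7693215-7693242 on the minus strand, with the core starting 23 bases before the start. That of Chac1 lies at chr2:119351039-119351066 on the plus strand, with the core starting 193 bases before the start. In those of Trib3 (chr2:152344029-152344056, minus strand) and Iars (chr13:49682127-49682154, plus strand) the core begins 14 and 7 bases after the start. The stretches of Pck2 (chr14:55540153-55540180) and Gars (chr6:55037961-55037988) are on the plus strand, with cores starting 103 and 30 bases before the start. Gm5168 and Ubash3b, which are on no amino acid list, were also among the genes higher in prep 2 with the core.

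The 250 bases before the start of Asns, the gene with the largest difference, are given so that the core can be seen in its place (chr6:7693210-7693459, minus strand, core in capitals):
Asns: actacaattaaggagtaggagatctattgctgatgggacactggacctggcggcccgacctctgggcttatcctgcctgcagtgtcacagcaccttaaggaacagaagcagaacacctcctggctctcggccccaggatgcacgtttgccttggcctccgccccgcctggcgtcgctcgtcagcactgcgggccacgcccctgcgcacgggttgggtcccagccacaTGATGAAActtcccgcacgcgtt

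Single genes of cytotoxic cells and of natural killer cells had large differences toward prep 2, while the cytotoxic list as a whole had no common direction. CD8+ T cells share many of these genes with natural killer cells, and cytokines raise several of them. Of 22 tested cytotoxic effector genes, 2 were higher in prep 2 and 1 in prep 1, with 12 below 0, 10 above 0 and a median of -0.08. Their summed Cy5 signal was 317153 and 320382 in prep 1 and 276025 and 274424 in prep 2, and most of it came from Gzma and Srgn. Gzma read 132965 and 132456 units in prep 1 and 115571 and 113773 in prep 2. Srgn read 120008 and 122418 in prep 1 and 94719 and 95573 in prep 2. Gzmb, a granule protease, had ratios of -0.75 and -0.82 in prep 1 and of 0.69 and 0.78 in prep 2 (2.87-fold). Gzmb was therefore below the thymic level in prep 1 and above it in prep 2. Its Cy5 signals in prep 1 were low, at 166 and 167 units. The Cy3 signal of Gzmb moved by -0.27 between arrays of the same thymic RNA. Under the alternative settings its difference lay between -2.24 and -1.21, and the call was kept. Ccl5, a chemokine stored by effector and memory T cells, had -2.92 and -2.93 in prep 1 and -1.45 and -1.46 in prep 2 (2.78-fold), below thymic RNA in both preps. A second Ccl5 probe gave -1.66.

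Other effector genes did not follow. Gzma, the granule protease with the highest ratios of the group, had 6.01 and 6.21 in prep 1 and 5.93 and 5.84 in prep 2 and was not called. Prf1, the pore-forming protein, had a difference of 0.10, and Ifng of 0.06. Ccl3, a chemokine of activated T cells, had -0.60 and was not called with both partners. Its neighbour in function Ccl4 was higher in prep 1 instead, with ratios of -1.65 on both arrays of prep 1 and of -2.35 and -2.28 in prep 2 (1.59-fold).

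Of 10 tested killer cell lectin-like receptor genes, 3 were higher in prep 2, where 0.55% of all genes were, and 0 were higher in prep 1. Among the 10, 2 genes had passed the filter on Cy5 through 1 prep alone, and neither was called. Klrd1, which encodes CD94, had ratios of -3.34 and -3.40 in prep 1 and of -2.08 and -2.13 in prep 2 (2.40-fold). Klrb1c, the gene of the NK1.1 antigen, had -0.08 and -0.16 in prep 1 and 0.72 and 0.86 in prep 2 (1.88-fold). Klrb1a, its neighbour in the same family, was 1.73-fold higher in prep 2. A further 12 receptors of this family that are on the array did not pass the filter on Cy5. The signals of Klrb1a and Klrb1c were low. In Cy5, Klrb1a read 116 and 121 units in prep 1 and 270 and 253 in prep 2, where the median spot of the 4 arrays read 196 to 215. Related members of this family can share sequence, and how far these probes tell them apart was not tested.

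Receptors and adaptors found on natural killer cells and on innate-like T cells were called as well. Cd7, a surface glycoprotein of T and natural killer cells, had -3.38 and -3.40 in prep 1 and -2.26 and -2.27 in prep 2 (2.18-fold). Cd244a, the 2B4 receptor, had -0.14 and -0.09 in prep 1 and 1.01 and 0.90 in prep 2 (2.10-fold), with Cy5 signals of 122 and 120 units in prep 1. A separate array entry named Cd244 read 57 and 58 units in prep 1 and 61 and 59 in prep 2. It was well above background on none of the arrays and was not tested. Fcer1g, a signalling adaptor of Fc and natural killer receptors, had 0.47 and 0.59 in prep 1 and 1.37 in both arrays of prep 2 (1.79-fold). Its companion adaptor Tyrobp had -0.54 and was not called.

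The whole list of natural killer and innate lymphoid markers did not move as one. Of 10 tested members 3 were higher in prep 2 (Cd7, Klrb1c and Fcer1g), where 0.55% of all genes were. The median was -0.24, and Eomes, a transcription factor of these cells, had -0.14. The defining markers Ncr1, Itga2 and Klra8 were not well above background in Cy5 on both arrays of either prep. The summed Cy5 signal of the list was 143304 and 143197 in prep 1 and 131195 and 128634 in prep 2, and Gzma supplied most of it. In bulk RNA, fewer cells of a type and less RNA per cell cannot be told apart, and the part of admixed natural killer cells in these differences was not tested.

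**Figure D3:**
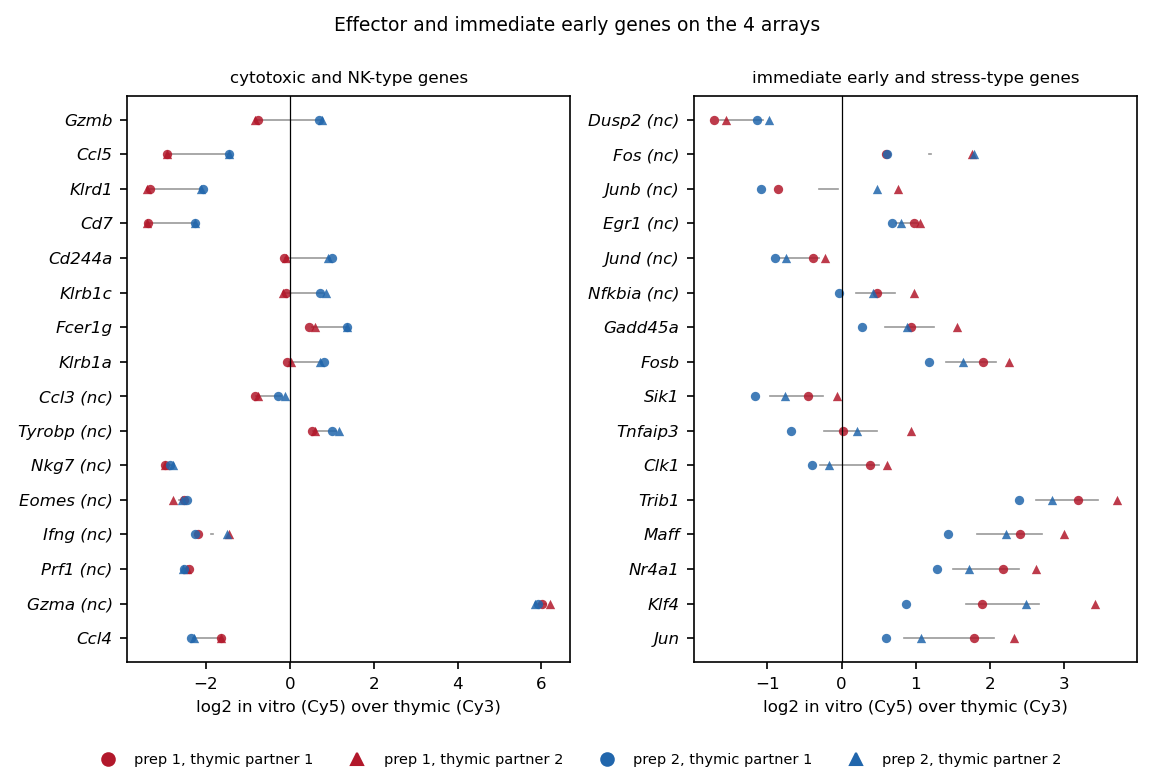
Log2 ratio of in vitro over thymic RNA on each of the 4 arrays for cytotoxic and natural killer type genes (left) and for immediate early and stress-type genes (right), with colours, symbols and (nc) as in the plot of amino acid genes. Gzmb and Klrd1 separate by prep with partners on top of each other, while Klf4 and Junb shift by up to 1.6 with the thymic partner, so that their preps can be compared only within a partner.

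Several large single differences on the side of prep 2 belonged to neither group. Drc1, a gene of the dynein regulatory complex of motile cilia, had ratios of -0.53 and -0.56 in prep 1 and of 1.26 and 1.23 in prep 2 (3.45-fold), with strong Cy5 signals of 7748 and 8153 units in prep 1 and 29039 and 28089 in prep 2. Khdc1a had 1.80 and 1.63 in prep 1 and 3.62 and 3.43 in prep 2 (3.49-fold) on the probe used, but its other probe gave only -0.13. Xlr, a lymphocyte gene of the X chromosome, was near the thymic level in prep 1 (0.06 and -0.04) and above it in prep 2 (1.40 and 1.32), and a second probe gave -1.20. The cDNA gene 2300002D11Rik was 2.53-fold higher in prep 2.

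Myo6, a myosin that moves toward the minus end of actin, was far above thymic RNA in both preps, at 4.94 and 4.96 in prep 1 and 6.32 and 6.14 in prep 2 (2.43-fold). Its second probe gave -1.23. Cox6a2, a subunit of cytochrome c oxidase best known from muscle, had 3.13 and 3.11 in prep 1 and 4.34 and 4.41 in prep 2. For Cox6a2 the Cy3 signal of the same thymic RNA also moved, by -1.31, and the Cy5 channel alone gave -2.56, so its size depends on the channel used. Nrp2, a receptor for semaphorins and growth factors, was 2.37-fold higher in prep 2 and below thymic RNA in both preps.

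Genes of cytokine response and of late maturation gave single calls. Il2ra, the alpha chain of the interleukin 2 receptor, had ratios of 2.97 and 3.12 in prep 1 and of 3.76 and 3.90 in prep 2 (1.73-fold). Its 3 other probes gave -0.54, -0.55 and 0.03, and as a mean over probes (-0.46) it was not called. Pim2, a kinase induced by cytokines, was 1.59-fold higher in prep 2. Cish, an inhibitor of cytokine signalling induced through STAT5, was 1.68-fold higher in prep 1 instead. Of 21 tested interleukin 2 and STAT5 response genes, 3 were higher in prep 2 and 1 was higher in prep 1, so this list had no common direction.

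S1pr1, the receptor by which mature T cells leave the thymus, had ratios of -1.20 and -1.21 in prep 1 and -0.43 and -0.44 in prep 2 (1.71-fold). It was the only called member of 19 tested late maturation genes. Ccr7, a homing receptor, had -0.42 and Il7r -0.33, and neither was called. Kit, the stem cell factor receptor of early precursors and mast cells, had -0.55 with both partners in prep 1 and 0.26 and 0.27 in prep 2 (1.76-fold). Of the 9 tested mast cell and basophil markers Kit was the only one called, and Cpa3, a mast cell protease gene, had 0.52 in the opposite direction.

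A list of S100 and annexin genes also held other genes, Lgals3 and Vim among them. Of its 18 tested members 4 were higher in prep 2, where 0.55% of all genes were. These were Lgals3, Vim, S100a4 and S100a6, and no annexin gene was called. The median of the list was 0.04, with 10 members above 0. Lgals3, a galectin, was 1.71-fold higher, S100a4 1.61-fold and S100a6 1.54-fold. Vim, the intermediate filament of mesenchymal and activated lymphoid cells, had ratios of -1.23 and -1.26 in prep 1 and of -0.54 and -0.59 in prep 2 (1.60-fold). Vim was not called in Cy5 alone, at -0.48, nor with the marked spots kept.

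Most genes of cell division had small differences toward prep 2. No member of the list of 30 mitosis genes reached 1.5-fold with both partners. The list had a median of -0.34, 29 of its 30 genes lay below 0, and the range was from -0.59 for Nusap1 to 0.13 for Pttg1. Over all genes 50.6% lay below 0. Under the alternative settings the median of the mitosis list lay between -0.49 and -0.33. At 1.25-fold 15 of the 30 genes were higher in prep 2, where 3.05% of all genes were. Mki67, the proliferation marker, had ratios of 2.02 and 1.96 in prep 1 and of 2.51 and 2.37 in prep 2, a difference of -0.45. Top2a, the topoisomerase that untangles chromosomes, had -0.58. The median of the 33 tested DNA replication genes was smaller, at -0.16, with 25 below 0.

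Called genes with roles in division that no list held included Pbk, a mitotic kinase, with ratios of 2.51 and 2.43 in prep 1 and of 3.18 and 3.11 in prep 2. Neil3, a glycosylase of S phase cells, was 1.61-fold higher in prep 2. They were picked out after their values were seen. Ndrg1, a gene of hypoxia and differentiation, was the only called member of 27 tested glycolysis and hypoxia genes, with a difference of -0.66.

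On the side of prep 1 the largest difference belonged to Jun, a subunit of the transcription factor AP-1. Jun and the related immediate early genes are switched on within minutes by receptor signals, stress or tissue handling. Jun had ratios of 1.78 and 2.32 in prep 1 and of 0.59 and 1.08 in prep 2, which is 2.32-fold. The order of the preps was the same with each partner, and with thymic prep 2 as the partner both values were higher, since the thymic preps themselves differed by 0.51. Of 25 tested immediate early genes 3 were higher in prep 1 and 0 in prep 2, and the median was 0.11. Nr4a1, a nuclear receptor induced by T cell receptor signals, had ratios of 2.17 and 2.62 in prep 1 and 1.29 and 1.71 in prep 2 (1.86-fold). Its Cy3 signal moved by -0.30 between arrays of the same thymic RNA. Cy5 alone gave 0.60 for Nr4a1, and the call was lost there. Fosb, an AP-1 subunit, was 1.59-fold higher in prep 1.

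Other well-known members were not called. Fos had ratios of 0.59 and 1.76 in prep 1 and of 0.62 and 1.78 in prep 2, a difference of -0.02. Egr1 had 0.28 and Junb 0.25. Dusp2, a phosphatase of activated T cells, had -0.57, and Myc -0.54, on the side of prep 2, and neither was called. Of the same 25 genes, 5 were at least 1.5-fold apart between the thymic preps. Junb was 1.59 higher in thymic prep 1 on the log2 scale, Klf4, from another list, 1.58 and Fos 1.17. Immediate early genes thus differed between the preps of both kinds, and Fos and Junb did so only between the thymic preps by this rule.

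Klf4, a Krüppel-like factor of quiescent and differentiating cells, had ratios of 1.89 and 3.42 in prep 1 and of 0.87 and 2.49 in prep 2 (1.97-fold). Without taking the difference within the thymic partner, Klf4 and Tnfaip3 were not called. Maff, a small Maf factor, had 2.40 and 2.99 in prep 1 and 1.43 and 2.21 in prep 2 (1.83-fold). Trib1, a pseudokinase related to Trib3, was 1.79-fold higher in prep 1, opposite to Trib3. Tnfaip3, the A20 inhibitor of NF-kB signalling, had 0.02 and 0.94 in prep 1 and -0.68 and 0.21 in prep 2 (1.64-fold). Of 20 tested NF-kB response genes, 2 were higher in prep 1 (Tnfaip3 and Ccl4) and 0 in prep 2, with a median of 0.20. The share higher in prep 1 over all genes was 0.515%. Gadd45a, a gene of growth arrest and DNA damage, was 1.59-fold higher in prep 1. Zfand2a, induced by arsenite and heat, was 1.88-fold higher in prep 1.

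Many genes higher in prep 1 also differed between the thymic preps. Of the 102 genes, 25 had thymic preps more than 0.3 apart on the log2 scale, against 2 of the 109 genes higher in prep 2 and 1.68% of all genes. In 20 of the 25, thymic prep 1 was the higher one. Both differences are taken over the same 4 arrays but between different RNAs.

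Clk1, a kinase that phosphorylates SR splicing factors and whose RNA is largely held in the nucleus, had ratios of 0.39 and 0.61 in prep 1 and of -0.40 and -0.18 in prep 2 (1.72-fold). Its relative Clk4 and the nuclear long RNA Malat1 were both at 0.61. In a set of 20 genes for CLK kinases, SR factors and nuclear RNAs, chosen after the values were seen, these 3 were higher in prep 1 and 0 were higher in prep 2. The cyclic AMP response element TGACGTCA, searched in the same windows and equal on both strands, was present in 4 of the 46 genes higher in prep 1 with a window (Clk4, Maff, Trp53inp2 and Zfand2a), in 0 of the 68 higher in prep 2 and in 3.20% of tested genes. For 3 of these 4 genes the stretch that holds it is shown, with the element in capitals:
Clk4: ccgccgtcccTGACGTCAcagacccctc
Trp53inp2: ggcccctttgTGACGTCAcaatcagctg
Zfand2a: gacatgtaagTGACGTCAtcacggcgcc
They lie at chr11:51263039-51263066 (plus strand), chr2:155381805-155381832 (plus strand) and chr5:139484599-139484626 (minus strand). The element itself begins 65, 41 and 125 bases before the start.

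Genes of T cell identity were close in both preps and leaned to prep 1. On the probes and processing used, all 20 tested genes of the T cell receptor complex and coreceptors had a difference above 0. They ran from 0.03 for Cd2 to 0.67 for Cd6, with a median of 0.17 (0.11 to 0.20 under the alternative settings). Of the 20, 2 were called, where 0.515% of all genes were higher in prep 1. Both of them, Cd6 and Cd8b1, lost the call in Cy5 alone, with median centring and as a mean over probes. The lowest values under the alternatives were -0.03 for Cd3d, -0.01 for Cd3g and -0.02 for Cd4, and a further Ptprc probe gave -0.05. Cd8a, a chain of the coreceptor used in the sort, had ratios of -0.64 and -0.60 in prep 1 and -0.92 and -0.87 in prep 2, a difference of 0.28. Cd8b1, the other chain, was called at 1.57-fold on the probe used, but its second probe gave -0.30 and the mean over probes was 0.17. The Cy3 signal of Cd8b1 moved by -0.30 between arrays of the same thymic RNA, and Cy5 alone gave 0.35. Cd6, a costimulatory receptor, was 1.59-fold higher in prep 1 on the probe used, and its second probe gave 0.13. Cd3e had 0.09, Cd3g 0.11, Cd3d 0.12 and Cd4 0.10, and Ptprc, which encodes CD45, had 0.18. Cd3d, a T cell marker, read 152674 and 147637 units of Cy5 in prep 1 and 149720 and 149340 in prep 2. Both preps thus carried this T cell transcript, which by itself does not tell the stage or kind of T cell.

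Genes of the CD4+ CD8+ stage also leaned to prep 1. Of 19 tested, 1 was called (Cd8b1), and the median was 0.17. Dntt, which adds nucleotides at receptor junctions, had ratios of 6.29 and 6.40 in prep 1 and of 5.75 and 5.76 in prep 2, a difference of 0.59 that missed the rule with thymic prep 1 (0.54). Its Cy3 signal moved by -0.37, and Cy5 alone gave 0.22. Rag1, of receptor rearrangement, had 0.33. Of 20 tested T lineage transcription factors 0 were called, with Lef1 highest at 0.52 and Id3 lowest at -0.36.

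Interferon-induced genes gave 1 call in 28 tested. Mx2, an antiviral GTPase, had ratios of -2.26 and -2.17 in prep 1 and of -3.18 and -3.02 in prep 2 (1.85-fold higher in prep 1). The median of the list was 0.14, and Mx1 had 0.02. Cxcl10, an interferon-induced chemokine on the list of cytokines, was 1.83-fold higher in prep 1, with ratios of -0.90 and -0.88 in prep 1 and of -1.78 and -1.74 in prep 2. H2-Ob, which restrains peptide loading of MHC class II, was 1.67-fold higher in prep 1, while H2-Aa and H2-Ab1 had -0.55 and -0.42.

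Further large differences on this side came from single genes. Of them Dusp16 is on a set of dual-specificity phosphatases put together after the values were seen, where it was the only called gene of 17 tested. Ryr3, a calcium release channel, was 2.27-fold higher in prep 1 on 1 probe, while its 3 other probes gave 0.10, 0.14 and 0.42. Dusp16, a phosphatase of JNK and p38 kinases, was 2.18-fold higher on 1 probe, and its other probes gave 0.22 and 0.09. Gjb2, a gap junction protein, was 1.98-fold higher and Utp14b, of ribosome assembly, 2.10-fold. With the marked spots kept, Jun (0.88), Ryr3 (0.38), Dusp16 (0.72), Utp14b (0.35), Gjb2 (0.39), Fosb (0.37) and Gadd45a (0.53) lost the call, as did the transcripts TC1419200 (0.44) and TC1485047 (0.72) and, on the side of prep 2, Igfbp4 (-0.47). The cDNA gene 0610009D07Rik had 0.15 and 0.13 in prep 1 and -0.98 and -1.08 in prep 2 (2.25-fold) and kept the call under every alternative run. The transcripts TC1419200, TC1485047, TC1440691, LOC630474 and ENSMUST00000101077 were among the 12 largest on this side, with 1.08, 1.05, 0.93, 0.98 and 0.98. They carry no gene symbol. A RefSeq name was found for 52.9% of genes higher in prep 1, for 69.7% of those higher in prep 2 and for 61.1% of all genes tested.

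Markers of other cells that a sorted culture could hold were examined beside these groups. Of 31 tested stromal markers, which stand for the OP9 layer, 2 were higher in prep 2 (Igfbp4 and Vim), 24 lay below 0 and the median was -0.23. Col1a1, a collagen of stromal cells, had ratios of 3.55 and 3.64 in prep 1 and 3.87 and 3.79 in prep 2, and Col3a1 had 2.59 and 2.80 against 3.11 and 3.06. Neither was called, with -0.23 and -0.39. The summed Cy5 signal of the stromal list was 330974 and 341788 in prep 1 and 339256 and 304138 in prep 2, and most of it came from Thy1 and Vim, which T cells express too. Without these 2 genes, a choice made after the values were seen, the sum was 50959 and 51396 in prep 1 and 55954 and 52482 in prep 2, and 23 of 29 genes lay below 0. Lum, Dcn and Pdgfra were not well above background. Igfbp4 was below thymic RNA in both preps, at -2.66 and -2.68 in prep 1 and -1.85 and -1.86 in prep 2.

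Of 16 tested myeloid markers 1, Fcer1g, was called, with a median of -0.09 and a summed Cy5 signal of 4085 and 4019 in prep 1 and 4583 and 4561 in prep 2. Csf3r, Elane and S100a8 were not well above background on both arrays of either prep. None of 12 tested B cell markers was called, with Vpreb1, a pre-B cell gene, highest at 0.53. None of 12 adipocyte markers and none of 10 erythroid and megakaryocyte markers was called. The part of stromal or myeloid RNA in the differences of T cell genes was not tested.

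Of the 39 lists 24 had at least 1 called member and 15 had none. Lists share members, and Il2ra, Ccl4, Ccl5, Gzmb, S1pr1 and Vim, among others, were each called on several lists. The plot of list members shows the even ones beside those with calls. None of 24 ribosomal protein genes was called (median -0.09), none of 25 respiratory chain genes (median -0.02), none of 17 heat shock genes (median 0.07) and none of 27 sterol synthesis genes (median -0.05). The 13 tested gamma delta T cell genes had a median of 0.04, with Tcrg-C at -0.31.

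**Figure D4:**
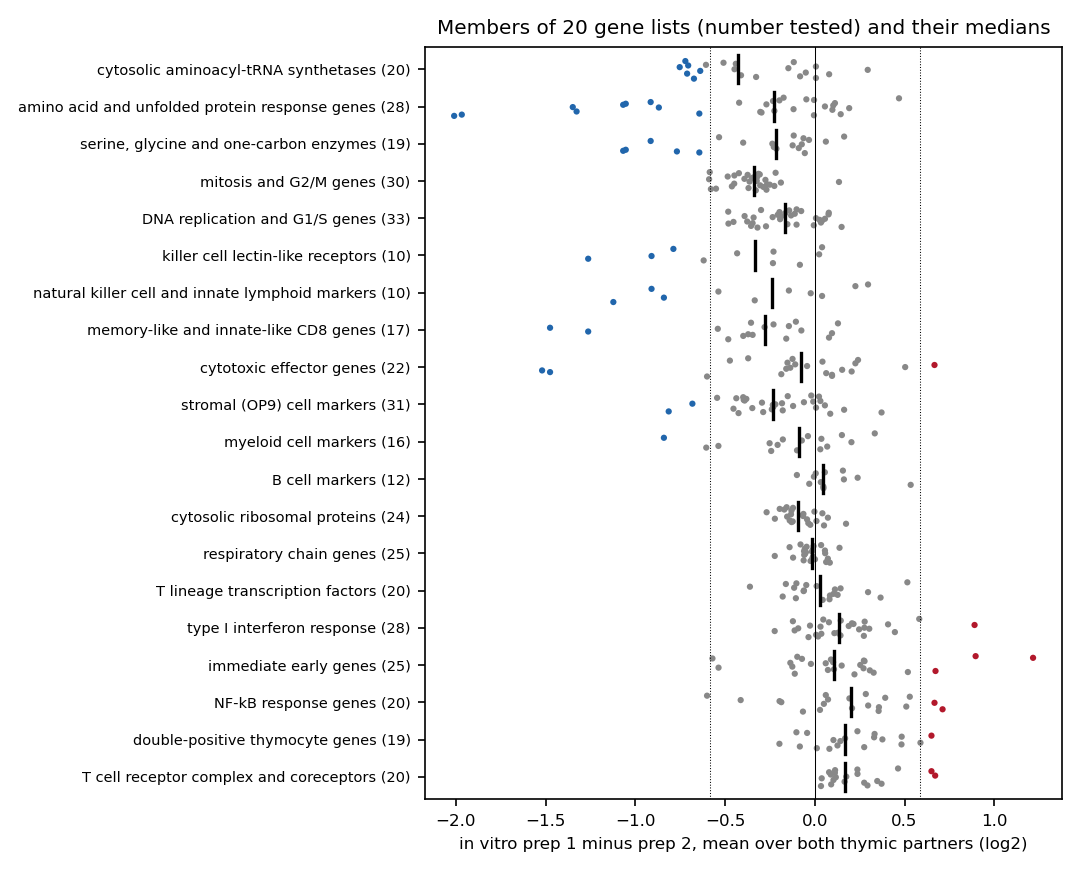
Difference between in vitro prep 1 and in vitro prep 2 (log2, mean over both thymic partners) for the tested members of 20 gene lists, with the number tested in brackets, black bars for medians and dotted lines at 1.5-fold. Red points were called higher in prep 1 and blue points higher in prep 2. Mitosis genes lie almost all left of 0 without a call, and the T cell receptor list lies right of 0 throughout on the probes used.

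Called genes lay on both sides of thymic RNA. Of the 109 genes higher in prep 2, both preps were above the thymic level in 62 and below it in 22. The other 25 were above it in prep 2 and below it in prep 1, Gzmb and Drc1 among them. Of the 102 genes higher in prep 1, both preps were above it in 53 and below it in 25, and the other 24 were above it in prep 1 and below it in prep 2. No called gene passed the filter on Cy5 through 1 prep alone. Where a called gene had further probes, 76 of these 81 probes pointed the same way and 23 met the rule themselves.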

How the data were processed

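Per the labels' protocols, 1 ug of total RNA went through linear amplification and dye labelling (Agilent's kit for low input). Per the file headers, Feature Extraction 9.5.1.1 from Agilent wrote the 4 scanner files that the authors deposited, with each spot's mean intensity and local background intensity in either channel. The submitters' processing notes name the same software. The values in the deposited series table are on a log10 scale. Set against the scanner's own ratio (r of at least 0.9999 on each array) they proved to be Cy5 over Cy3. Its 4 medians were 0, and 99.6% of values on array 1 were equal within 0.0001.

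Log ratios were computed with limma 3.58.1 in R 4.3.3. Spots marked as non-uniform or outlying (133 to 187 per array) were left out, background was corrected by normexp (offset 50), and loess was run within each array, giving control spots weight 0. Spots of a probe were averaged and the brightest probe stood for a gene. Symbols were updated through RefSeq accessions (GRCm38.p6), where 22951 probes matched and 5141 names changed; the array gives no build. The differences and calls were tested on simulated data. Named were the 12 largest called differences in each direction (called at 2-fold where at least 12 were), up to 6 called members of each list and a fixed set of check genes. Genes named beyond these were chosen after their values were seen. The comparison, its members and the 39 lists were chosen with earlier results of these data known; 8 further sets were added later. The labels speak of biological replicates, and no test across preps was possible with 1 RNA prep a side. Replicate numbers are the thymic partner, whose RNA same-numbered arrays share, so the difference is taken within it. Some items are not reported here. Alternatives changed the background step, normalization, filter, probe rule and partner.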

Additional observations from a re-analysis of the deposited data

How the results depend on the processing

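None of the 211 calls changed direction under the 17 alternatives run on them. The counts at 1.5-fold (102 and 109 genes higher in prep 1 and prep 2) moved by more than 1.5 times with marked spots kept (42 higher in prep 1), with the background model on all spots (43 higher in prep 1), with Agilent's processed signals (301 and 325) and in the deposited series table (303 and 326). The counts at 2-fold (5 and 24) became 44 and 87 with both the processed signals and the series table. The 5 genes higher in prep 1 became 9 with an offset of 16, 8 without background subtraction, 1 with marked spots kept or with the model on all spots, 10 with median centring, 13 in Cy5 alone and 3 as a mean over probes. The 46 genes of the thymic preps became 30 with median centring and 227 with the processed signals. Leaving out replicate 1 or 2, that is 1 thymic partner, gave 130 to 159 genes higher in prep 1 and 138 to 168 higher in prep 2. At 2-fold this gave 6 to 8 higher in prep 1. At 1.25-fold, a threshold added after the data were seen, 648 and 605 genes were called. With no replicate block, that is without pairing by thymic partner, 277 genes were called, and Klf4 and Tnfaip3 were not. Of the 54 named called genes, 36 kept the call under all 17 settings; the cause of the changes was not tested. It was lost by 11 with marked spots kept, by 10 with the model on all spots, by 5 each in Cy5 alone (Nr4a1, Gadd45a, Vim, Cd6 and Cd8b1) and as a mean over probes, by 2 with median centring (Cd6 and Cd8b1), and by 1 each with scaling between arrays (Fosb), the processed signals and the series table (Khdc1a). Array signal over background limits the weak genes, such as Klrb1a and Cd244a.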
